A study of Homo sapiens with 12 samples.

Results

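Heat shock proteins and J-domain proteins are molecular chaperones: they hold, fold and sort other proteins. The set described here holds the protein-coding genes whose symbol starts with DNAJ, or with HSPA or HSPB and a digit, together with HSPH1, HSPD1, HSPE1, HSP90AA1 and HSP90AB1. The main chaperones of the endoplasmic reticulum (HSPA5, DNAJB9, DNAJB11, DNAJC3 and DNAJC10) were left out by the rule. The rule found 68 of the 60604 gene identifiers of the count table, among 19674 protein-coding genes: 14 in the HSP70 and HSP110 families, 2 in HSP90, 2 in the mitochondrial chaperonin pair, 9 small heat shock proteins, and 4 DNAJA, 10 DNAJB and 27 DNAJC genes. Although most members work in the cytosol, the symbols also bring in mitochondrial proteins such as HSPA9, HSPD1, HSPE1, DNAJA3 and DNAJC19, and proteins of the endoplasmic reticulum such as HSPA13 and DNAJC1. So the set is described here as heat shock and DNAJ chaperones, without the word cytosolic.

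RNA was sequenced from HEK293T, a line of human embryonic kidney cells that expresses a viral large T antigen and takes up plasmids readily. In 1 group the cells received no plasmid, in another a plasmid for dCas9-VP160 alone, and in the last the same plasmid and 6 guide RNAs for the promoter of CD34, a gene for a cell surface glycoprotein. dCas9-VP160 is Cas9 without its cutting activity, fused to repeats of a viral activation domain. The vector named in the labels is sgRNA-dCas9-VP160-P2A-EGF, and cells were collected 48 h after lipofection with 5.4 pmol of plasmid in all. The cells without plasmid are called non-transfected in the series text and reagent-treated in the protocol, and no group carried a plasmid that lacked dCas9-VP160. Plasmid DNA and dCas9-VP160, and also the reagent if the control cells had none, cannot be told apart. Each group had 4 libraries, 2 technical replicates in each of 2 experiments on separate batches of cells, and all errors below are over n = 2 experiments unless stated otherwise.

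Library totals ran from 6750035 to 11932244 counts. CD34 served as the check of the labels, with a log2 difference of 5.59 with guides and of -1.2 with dCas9-VP160 alone against no plasmid. KRT8, KRT18 and VIM, expressed in HEK293T, averaged 741, 349 and 352 CPM (counts relative to the library total after TMM scaling) without plasmid, whereas PAX2 was at 0.99 CPM. Markers of HEK293T moved with the plasmid: by edgeR on the log2 scale, KRT8 (0.21) and KRT18 (0.16) were higher and VIM (-0.28), EYA1 (-0.39), LHX1 (-0.49) and PAX2 (-1.41) lower with dCas9-VP160 alone. With guides KRT8 (0.19) was higher and VIM (-0.39), EYA1 (-0.41), LHX1 (-0.90) and PAX2 (-1.89) were lower. The part of these markers in the results was not tested. Of 11 markers of blood, liver, endothelial and muscle cells, 9 were too low to be tested, none was at 0 in every library, and the highest level of any in any library was 3.31 CPM, that of VWF. VWF averaged 1.29 CPM without plasmid, 2.58 CPM with dCas9-VP160 and no guides and 2.52 CPM with guides, and its part in the results was not tested. The 2 libraries of experiment 1 without plasmid stood apart by their spike-in RNA, 0.719% and 0.404% of counts against at most 0.00818% in the others. Values without experiment 1 are given beside the counts of members and lists, those of families and lists having been chosen after seeing the data, and they rest on the spread of technical replicates.

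In the chaperone cycle a J-domain protein brings a client to an HSP70 and speeds up its ATP hydrolysis, and a nucleotide exchange factor such as an HSP110 releases the client. HSP90 takes over clients such as kinases and steroid receptors, small heat shock proteins hold unfolded proteins without ATP, and HSP60 with HSP10 folds proteins in the mitochondrial matrix. Under proteotoxic stress the transcription factor HSF1 binds heat shock elements, inverted repeats of a short unit, and raises a well-known set that includes HSPA1A, HSPA1B, DNAJB1, HSPB1 and HSPH1.

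The sequences upstream of 2 genes with opposite responses, HSPB8 (the member with the largest rise) and HSPA8 (the HSP70 with the highest level per length), are shown first because the heat shock element is the sequence by which this gene set is known. The RefSeq promoter table (GRCh38.p14) matched 60 of the 68 members. Each run below covers the 250 bases before the RefSeq start, 5′ to 3′, for HSPB8 at chr12:119178681-119178930, plus strand, and for HSPA8 at chr11:123062137-123062386, minus strand. Capitals mark the 2-unit heat shock element GAANNTTC or TTCNNGAA in HSPB8, where another match centred 8 bases after the start lies outside the run. In HSPA8 they mark the 3-unit element, which is a 2-unit element with 2 further free bases and 1 more unit, orientations alternating, so that each 3-unit match contains 2-unit ones.
HSPB8: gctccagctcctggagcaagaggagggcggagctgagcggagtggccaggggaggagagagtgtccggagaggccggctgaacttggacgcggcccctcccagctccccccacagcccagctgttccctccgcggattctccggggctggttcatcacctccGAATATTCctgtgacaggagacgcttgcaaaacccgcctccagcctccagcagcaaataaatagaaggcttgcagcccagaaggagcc
HSPA8: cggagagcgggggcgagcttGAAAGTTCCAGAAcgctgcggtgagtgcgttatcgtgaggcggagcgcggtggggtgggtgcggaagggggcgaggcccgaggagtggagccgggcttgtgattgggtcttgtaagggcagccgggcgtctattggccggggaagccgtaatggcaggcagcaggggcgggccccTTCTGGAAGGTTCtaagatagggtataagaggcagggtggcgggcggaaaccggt
The search covered 250 bases before and 50 after 1 RefSeq start for each gene, on both strands and with no mismatch. Any other start of the same gene was not searched, so a gene counted as without the element may hold it there. The 3-unit element was in 4 of the 60 member promoters and in 133 of 27305 promoters of the table (0.487%). Besides HSPA8, which had it at 2 places, it was found in DNAJA1, DNAJB6 and HSPA6, after the start in DNAJA1 and before it in the others. Their matches in capitals, with 8 bases on either side, lay at chr9:33025268-33025296, plus strand, at chr7:157336865-157336893, plus strand, and at chr1:161524458-161524486, plus strand.
DNAJA1: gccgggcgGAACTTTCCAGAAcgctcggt
DNAJB6: agagccgaGAACCTTCGCGAAggtggggc
HSPA6: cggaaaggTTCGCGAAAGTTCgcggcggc
With dCas9-VP160 alone these 4 genes went different ways: HSPA8 fell by 0.37 on the log2 scale and DNAJB6 rose by 0.21, while DNAJA1 (-0.00045, adjusted p = 0.993) and HSPA6 (0.70, adjusted p = 0.127) did not pass the edgeR test. The 2-unit element was in 14 of the 60 member promoters and in 13.7% of all promoters. A match of letters is a description and not a binding site, and these windows say nothing of elements farther away.

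Of the 68 members, 60 had enough counts to be tested. The other 8 were DNAJC25-GNG10 and HSPB2-C11orf52, at 0 in all 12 libraries, and DNAJB8, DNAJC5B, DNAJC5G, HSPB2, HSPB3 and HSPB6, with at most 6 counts in any library. Among the tested members, 12 averaged under 5 CPM. The median level was 50.9 CPM for the tested members and 15.4 CPM for all 19662 tested genes, so a difference of a given size was more easily called among the chaperones than among all genes.

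Per kilobase of annotated exon, the scale on which genes can be compared, the cells without plasmid had most HSP90AB1, the constitutive cytosolic HSP90, at 252 ± 9.06 CPM per kb (mean ± SD). The constitutive HSP70 gene HSPA8 came next at 196 ± 6.46 CPM per kb. DNAJA1, a main J-domain partner of HSPA8, HSPD1 (HSP60) and the stress-inducible HSP90 gene HSP90AA1 followed at 109.8 ± 7.86, 106 ± 8.53 and 101 ± 12.8 CPM per kb, and these values did not differ beyond their spread. After HSPB1 (62.7 ± 1.4) came DNAJC8, DNAJB1, HSPA4 and HSPA9 at 49.8 ± 15.8, 47.1 ± 0.668, 45.8 ± 2.33 and 41.7 ± 0.485 CPM per kb. Exon lengths are the union over all annotated transcripts, which lowers the value of genes with long, rarely used exons. The order of the first 2 genes depends on these lengths, 4849 bases for HSPA8 and 2980 for HSP90AB1. In CPM, HSPA8 (951 ± 31.3) stood above HSP90AB1 (752 ± 27) in the cells without plasmid. All members together took 0.615 ± 0.031% of counts without plasmid, 0.679 ± 0.038% in the dCas9-VP160 group and 0.686 ± 0.029% with guides. By experiment these shares were 0.593% and 0.637%, 0.652% and 0.705%, and 0.665% and 0.706%, so the plasmid groups overlapped each other and lay above the group without plasmid.

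The first comparison asks what the plasmid for dCas9-VP160 did in the absence of guides. With it, 24 of the 60 tested members were higher and 11 lower at an adjusted p under 0.05 (edgeR quasi-likelihood test, Benjamini-Hochberg over all 19662 genes). Among all tested genes 26.6% were higher and 24.6% lower, against 40% and 18.3% of the members. Of the called members, 11 rose by at least 0.5 on the log2 scale and 2 fell by as much, where the shares of all genes were 11.1% and 10.4%. The median log2 difference was 0.050 over the members and -0.0020 over all genes. Without experiment 1 the counts were 20 higher and 5 lower. DESeq2 called 3 members lower, and its count of higher members is not given here. Without experiment 1, 13 of 14 HSP70 and HSP110 genes and 4 of 5 small heat shock proteins were still tested. Shares of all genes under these and the later alternatives are not given here. The counts thus do not show whether members lost more calls than genes in general. In bulk RNA, a change in the number of cells that express a gene and a change in RNA per cell cannot be told apart. The sources used here give no share of transfected cells.

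With guides, 26 of the 60 members were higher and 12 lower than in the cells without plasmid, which is 43.3% and 20%, where 26.7% and 25.9% of all genes were. Rises of at least 0.5 numbered 12 and falls 3, against 11.5% and 12% of all genes. The median was 0.082 over the members and -0.016 over all genes. This comparison shares its control libraries with the first, so the 2 sets of values are not independent. Without experiment 1 there were 21 higher and 7 lower members, again with no share of all genes beside them.

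**Figure D1:**
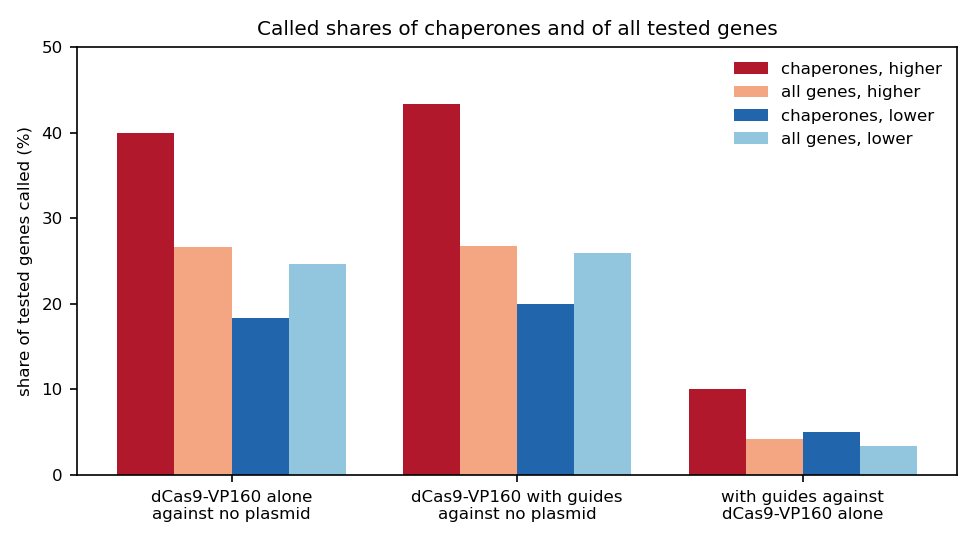
Share of tested genes called higher or lower (edgeR adjusted p under 0.05, vertical axis in percent) in each of the 3 comparisons, for the 60 tested chaperones (dark bars) and all 19662 tested genes (light bars). In the first comparison 40% of chaperones and 26.6% of all genes were higher, and 18.3% and 24.6% were lower.

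By family, the calls in the first comparison stood as follows, where 26.6% of all genes were higher and 24.6% lower. Of 14 HSP70 and HSP110 genes 6 rose (42.9%) and 3 fell (21.4%), and of 24 DNAJC genes 10 rose (41.7%) and 7 fell (29.2%), so the shares of falls were near that of all genes. Among 4 DNAJA genes 2 rose, among 9 DNAJB genes 3 rose, and none of these fell. Without experiment 1 the 13 HSP70 and HSP110 genes still tested had 6 rises and 2 falls. The DNAJC genes then had 8 and 2, the DNAJA genes 2 rises and the DNAJB genes 2. With guides all 4 DNAJA genes were above the cells without plasmid, with a median log2 difference of 0.54, and 2 of the 4 passed without experiment 1.

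**Figure D2:**
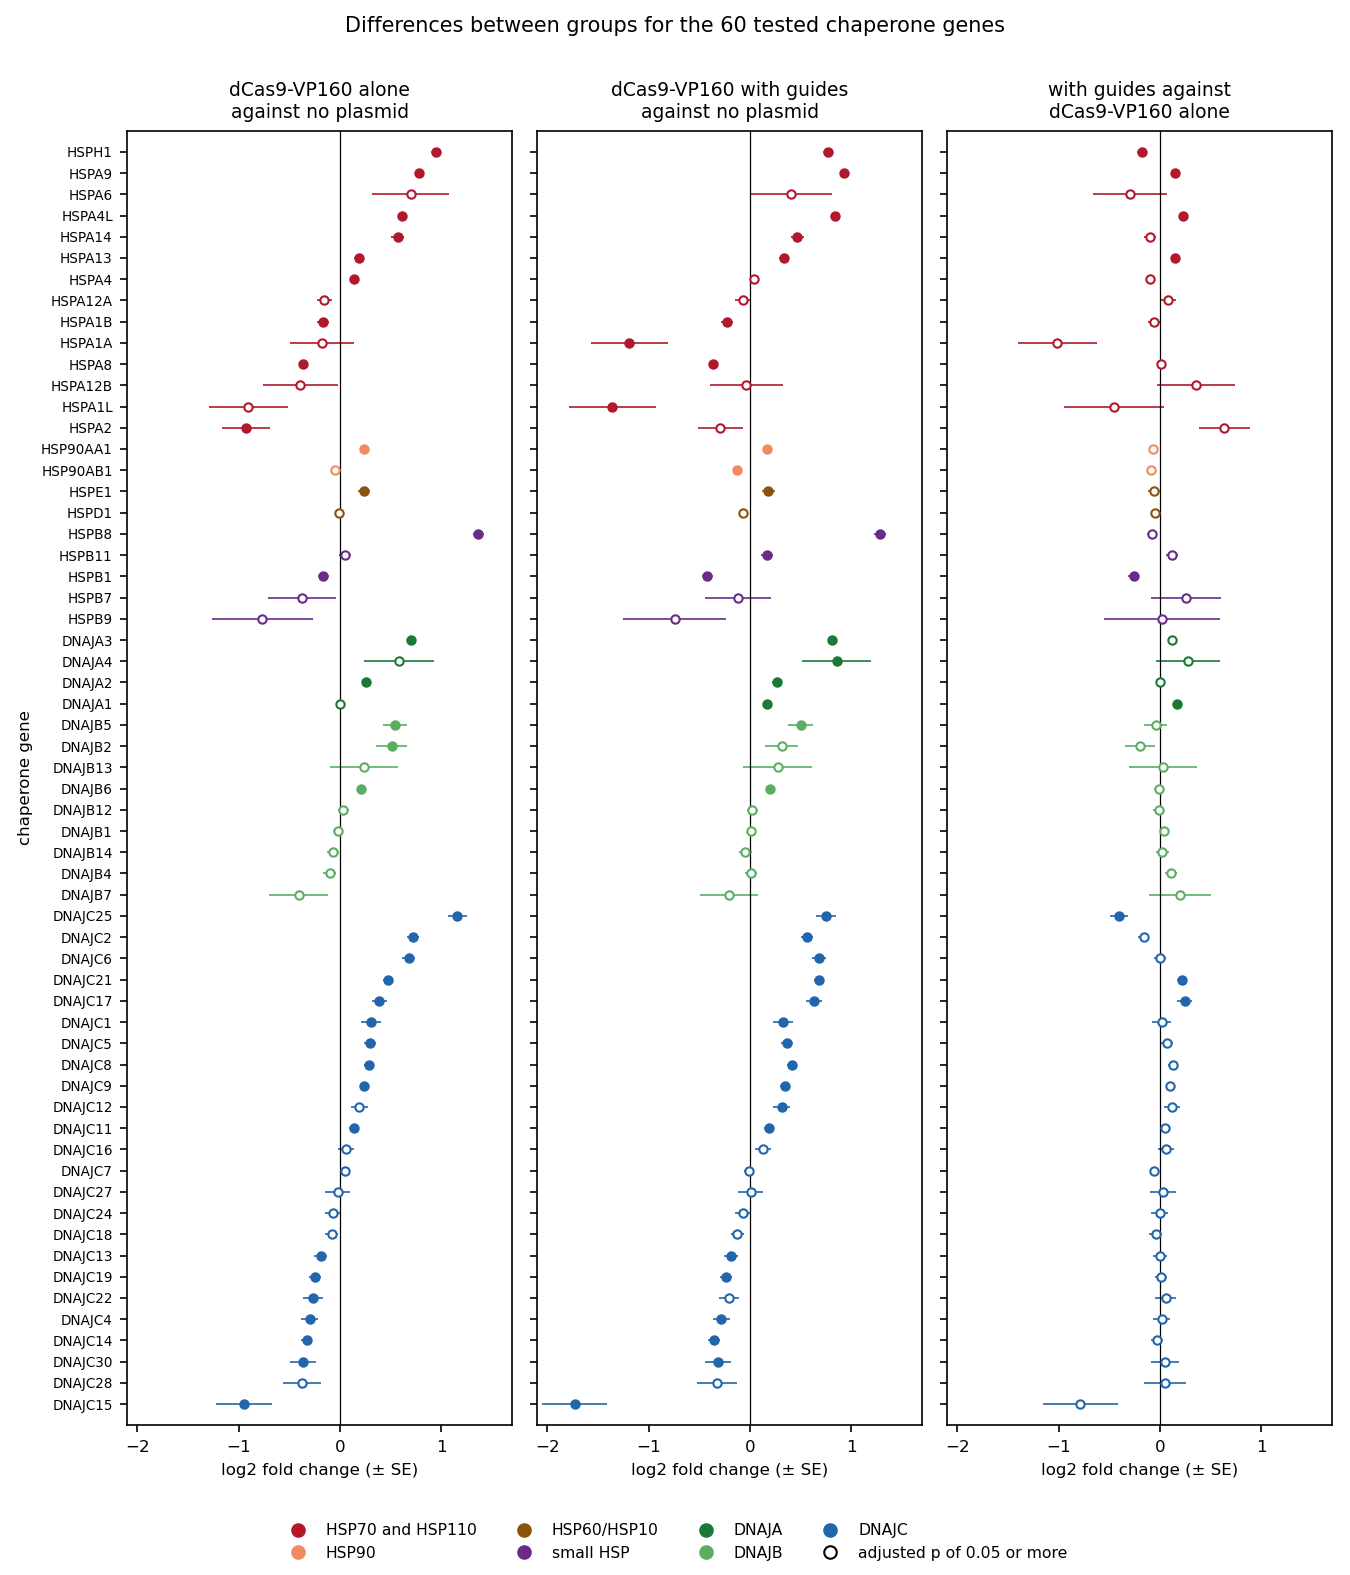
Log2 fold change with its standard error (horizontal axis) of each of the 60 tested members, coloured by family, in the 3 comparisons. Filled points passed an edgeR adjusted p of 0.05 and open points did not. HSPB8 lies farthest to the right in the first 2 panels, at 1.37 and 1.29, and the third panel, guides against dCas9-VP160 alone, holds the narrowest spread of filled points.

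Within the HSP70 family the responses ran in both directions. In the values that follow, the dCas9-VP160 group is the one without guides, and the 4 libraries of each group are given in 1 order: experiment 1 replicates 1 and 2, then experiment 2 replicates 1 and 2. HSPA8, the constitutive HSP70 of the cytosol, fell (ENSG00000109971, chr11:123057489-123063230 on hg38 by GENCODE release 29). HSPA8 stood at 893, 962, 965 and 981 CPM without plasmid, 689.5, 728, 744 and 790.2 CPM in the dCas9-VP160 group and 719, 718, 760.1 and 767 CPM with guides. Every library that received plasmid lay below every library that did not, and the 2 plasmid groups overlapped. The log2 difference was -0.37 ± 0.032 (SE, adjusted p = 3.25e-10) with dCas9-VP160 alone and -0.36 ± 0.032 (SE, adjusted p = 3.84e-10) with guides by edgeR, or 0.776 and 0.779 times the level without plasmid. About 8.23% of the 50-base words of its transcripts also occur in 12 other genes, among them the pseudogene HSPA8P1.

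HSPA9, the mitochondrial HSP70 also called mortalin, moved the other way (ENSG00000113013, chr5:138553756-138575724). HSPA9 stood at 339, 345, 339 and 354 CPM without plasmid, 577, 586, 620.4 and 589 CPM in the dCas9-VP160 group and 656, 638, 675 and 646 CPM with guides. The 3 groups did not overlap. HSPA9 was 1.72-fold higher with dCas9-VP160 alone (log2 0.78 ± 0.034 (SE, adjusted p = 1.54e-16) by edgeR) and 1.9-fold higher with guides (log2 0.93 ± 0.034 (SE, adjusted p = 3.04e-18) by edgeR). Within experiments the first difference was 0.77 in experiment 1 and 0.80 in experiment 2.

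The HSP110 genes encode large HSP70 relatives that act as nucleotide exchange factors, and 3 of them were measured: HSPH1, HSPA4L and HSPA4. HSPH1 gave 53.1, 63.7, 65 and 77.1 CPM without plasmid, 119, 116, 141 and 128 CPM in the dCas9-VP160 group and 104, 107, 118 and 116 CPM with guides. The lowest library with plasmid, at 104 CPM, lay above the highest without, at 77.1 CPM. HSPH1 rose by 0.95 ± 0.05 (SE, adjusted p = 1.13e-14) with dCas9-VP160 alone and by 0.77 ± 0.051 (SE, adjusted p = 8.9e-13) with guides on the log2 scale by edgeR. HSPA4L was counted at 116, 122, 126 and 125 CPM without plasmid, 187, 188, 186 and 188 CPM in the dCas9-VP160 group and 216, 216, 217 and 231 CPM with guides. The 3 groups of HSPA4L libraries were separate, with the guide libraries highest. Its rise was 0.62 ± 0.042 (SE, adjusted p = 2.24e-12) and 0.84 ± 0.042 (SE, adjusted p = 2.44e-15) by edgeR in the same order. HSPA4 was at 229.6, 227, 239 and 249 CPM without plasmid, 254, 239, 277 and 265 CPM in the dCas9-VP160 group and 242, 209, 268 and 248 CPM with guides. HSPA4 libraries of the groups overlapped, and its edgeR log2 difference was 0.14 ± 0.038 (SE, adjusted p = 0.00409) with dCas9-VP160 alone and 0.037 ± 0.039 (SE, adjusted p = 0.446) with guides, which passed the test in the first case only.

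**Figure D3:**
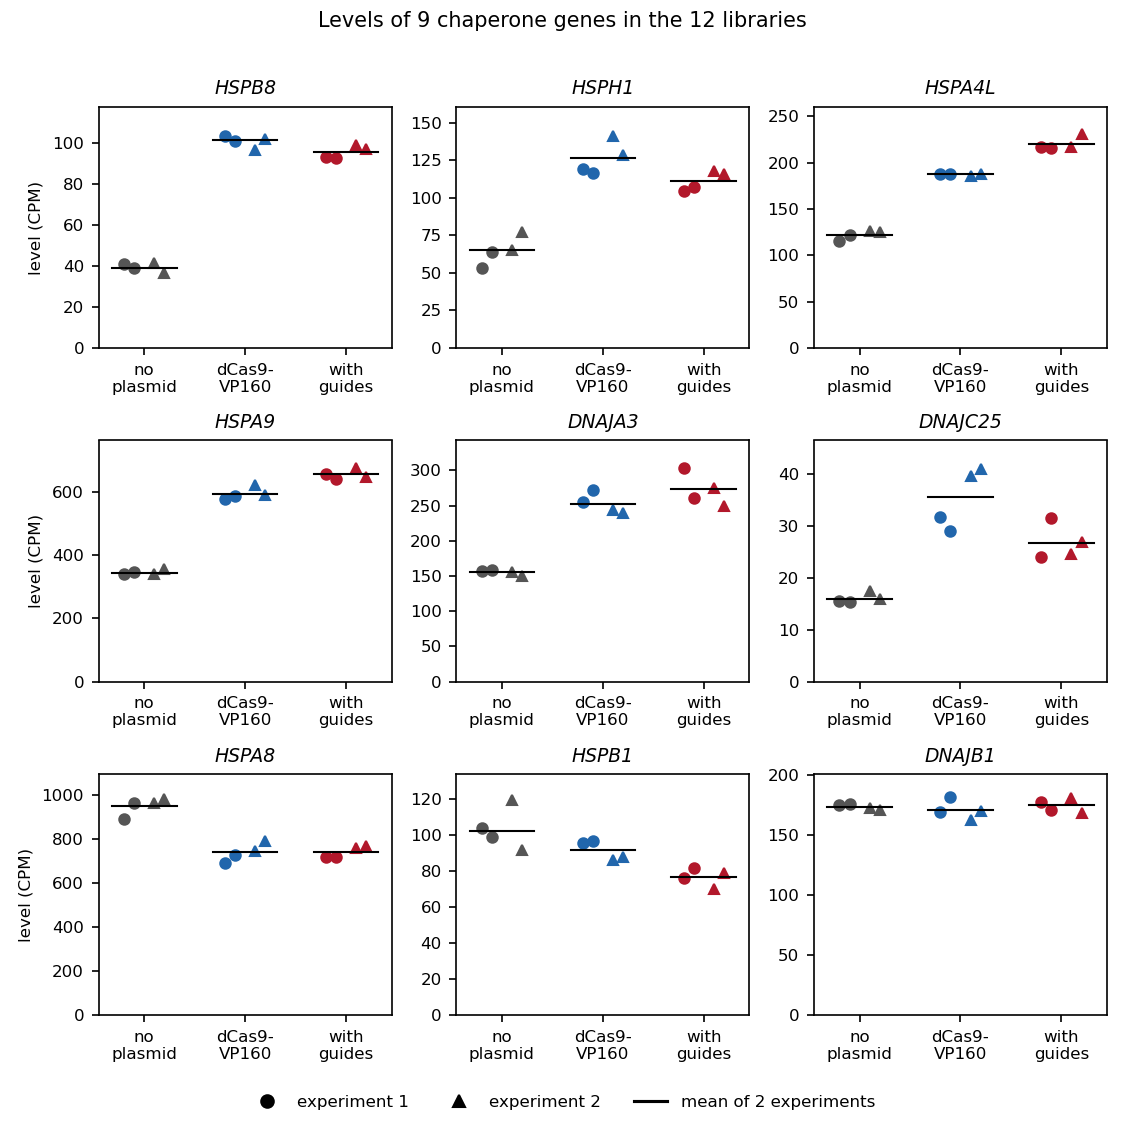
Levels in CPM (vertical axes, from 0) of 9 chaperone genes in each of the 12 libraries, with circles for experiment 1, triangles for experiment 2 and lines for the mean of the 2 experiments. HSPB8, HSPH1, HSPA4L, HSPA9, DNAJA3 and DNAJC25 are higher in every library with plasmid than in any without, HSPA8 is lower, HSPB1 is lowest with guides, and DNAJB1 is level at 162 to 181 CPM throughout.

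The stress-inducible HSP70 genes HSPA1A and HSPA1B lie next to each other on chromosome 6 and share 71.3% of their 50-base words, so reads cannot be divided between them with confidence. HSPA1B was counted at 85.7, 95.9, 69.3 and 69 CPM without plasmid, 81.8, 80.1, 60.8 and 62.1 CPM in the dCas9-VP160 group and 74.1, 70.6, 63.2 and 64.8 CPM with guides. Experiment 1 was higher than experiment 2 in each group, and within each experiment the libraries with plasmid lay below those without. HSPA1B differed by -0.17 ± 0.057 (SE, adjusted p = 0.0152) with dCas9-VP160 alone and -0.23 ± 0.058 (SE, adjusted p = 0.00149) with guides by edgeR. The gene AL671762.1 on the same strand overlaps 36.5% of the HSPA1B exon bases, which makes its counts uncertain too. HSPA1A had between 1 and 20 counts per library, against 455 to 1085 for HSPA1B. HSPA1A gave 1.4, 1.68, 2.08 and 0.838 CPM without plasmid, 0.58, 1.75, 1.31 and 1.67 CPM in the dCas9-VP160 group and 0.793, 0.861, 0.662 and 0.142 CPM with guides. Its edgeR log2 difference with guides was -1.19 ± 0.38 (SE, adjusted p = 0.00996), and with dCas9-VP160 alone -0.18 ± 0.32 (SE, adjusted p = 0.672). HSPA6, which many cells switch on only under strong heat shock, had 4 to 16 counts per library and averaged 0.686 ± 0.0481, 1.13 ± 0.13 and 0.922 ± 0.365 CPM in the 3 groups, and it shares 45.5% of its words with HSPA7.

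HSPA14, which forms the ribosome-associated chaperone pair with the J-domain protein DNAJC2, averaged 45.3 ± 0.559 CPM without plasmid, 67.2 ± 4.46 CPM in the dCas9-VP160 group and 62.8 ± 3.2 with guides. It was higher by 0.57 ± 0.059 (SE, adjusted p = 8.47e-09) and 0.47 ± 0.061 (SE, adjusted p = 2.85e-07) (edgeR, log2). Another annotated entry of the same name and CDNF on the other strand overlap HSPA14. The larger overlap covers 17.4% of its exon bases, so its counts are uncertain there. DNAJC2 was measured at 49, 48.2, 56.8 and 58.7 CPM without plasmid, 75.5, 80.3, 104 and 92.7 CPM in the dCas9-VP160 group and 71.2, 76.4, 81.4 and 83.5 CPM with guides. DNAJC2 rose by 0.72 ± 0.056 (SE, adjusted p = 3.01e-11) and 0.56 ± 0.057 (SE, adjusted p = 4.56e-09) by edgeR, and no library with plasmid overlapped those without. HSPA13, an HSP70-like protein of microsomes, was at 95, 93.7, 108 and 94.7 CPM without plasmid, 107, 94.9, 129 and 111 CPM in the dCas9-VP160 group and 112, 118, 134 and 127 CPM with guides. It passed the edgeR test at 0.19 ± 0.047 (SE, adjusted p = 0.00184) and 0.34 ± 0.047 (SE, adjusted p = 1.05e-06). The low-count genes HSPA2 and HSPA1L averaged 2.9 ± 0.0922 and 1.15 ± 0.128 CPM without plasmid. By edgeR HSPA2 was lower with dCas9-VP160 alone (-0.93 ± 0.24 (SE, adjusted p = 0.0018)), and HSPA1L with guides (-1.36 ± 0.43 (SE, adjusted p = 0.00982)).

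Since these genes moved in opposite directions, the make-up of the HSP70 and HSP110 transcripts shifted. Summed over the 14 genes the level was 1980 ± 49 CPM without plasmid, 2186 ± 91 CPM in the dCas9-VP160 group and 2258 ± 84 CPM with guides. On the per-length scale HSPA8 made up 51.8 ± 0.99% of the family without plasmid, 39 ± 0.92% in the dCas9-VP160 group and 38.7 ± 0.071% with guides. The share of HSPA9 was 11%, 18.5 ± 0.21% and 20 ± 0.50% in the same order, and both shares were apart between the cells with and without plasmid in each experiment. HSPH1 took 2.05 ± 0.26%, 3.85 ± 0.20% and 3.36 ± 0.11%, and HSPA4L 2.78 ± 0.071%, 4.14 ± 0.17% and 4.78 ± 0.085%. The size of these shares depends on the exon lengths. In CPM, not divided by length, HSPA8 took 48.05%, 33.8% and 32.8% of the family. HSPA9 then took 17.35%, 27.1% and 29.05% in the same order.

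**Figure D4:**
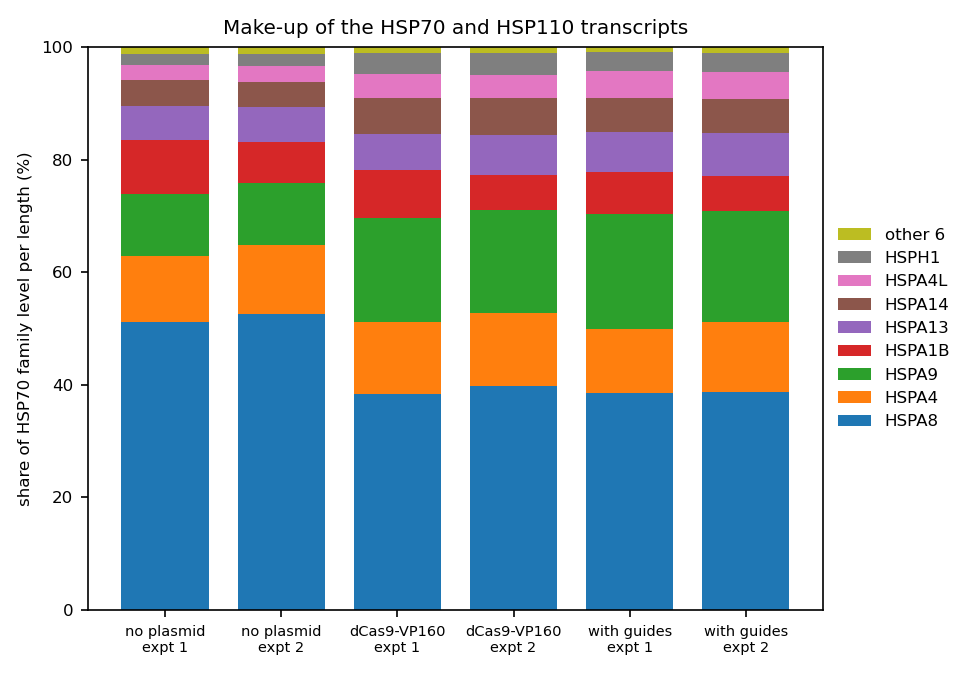
Share of the summed per-length level of the 14 HSP70 and HSP110 genes (vertical axis, percent) taken by each gene, 1 bar for each group and experiment with technical replicates summed. HSPA8 falls from 51.8% without plasmid to 39% and 38.7% with plasmid, and HSPA9 grows from 11% to 18.5% and 20%.

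Among the DNAJA genes, which keep the domain layout of bacterial DnaJ, the mitochondrial partner of HSPA9 changed most among those well expressed. DNAJA3 was at 158, 159, 156 and 151 CPM without plasmid, 255, 272, 244 and 239.8 CPM in the dCas9-VP160 group and 304, 261, 275 and 249 CPM with guides. DNAJA3 (ENSG00000103423, chr16:4425805-4456775) was higher in all 8 libraries with plasmid, by 0.70 ± 0.039 (SE, adjusted p = 5.3e-14) and 0.81 ± 0.039 (SE, adjusted p = 1.54e-15) on the log2 scale by edgeR. DNAJA2, a cytosolic partner of HSPA8, rose by 0.26 ± 0.044 (SE, adjusted p = 1.47e-05) and 0.27 ± 0.044 (SE, adjusted p = 1.22e-05) by edgeR. DNAJA1 was measured at 277, 291, 324 and 308 CPM without plasmid, 288, 288, 309.8 and 309.7 CPM in the dCas9-VP160 group and 318, 347, 341 and 337 CPM with guides. For DNAJA1 the guide libraries were above those with dCas9-VP160 alone without overlap, while the group without plasmid overlapped both. Its edgeR difference was -0.00045 with dCas9-VP160 alone (95% interval -0.078 to 0.077) and 0.17 ± 0.038 (SE, adjusted p = 0.000469) with guides. DNAJA4 averaged 0.787 ± 0.0219 CPM without plasmid and passed the edgeR test with guides only, at 0.86 ± 0.34 (SE, adjusted p = 0.036).

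DNAJB1, the J-domain protein HSP40 and a standard readout of HSF1, had like levels in all groups. DNAJB1 was at 175, 176, 172 and 171 CPM without plasmid, 169, 181, 162 and 169.6 CPM in the dCas9-VP160 group and 177, 171, 181 and 168 CPM with guides. All 3 groups overlapped. The edgeR log2 difference was -0.023 with dCas9-VP160 alone (95% interval -0.11 to 0.06, adjusted p = 0.661) and 0.014 with guides (-0.07 to 0.10, adjusted p = 0.8). DNAJB6, which keeps polyglutamine proteins soluble, rose by 0.21 ± 0.045 (SE, adjusted p = 0.000274) and 0.20 ± 0.045 (SE, adjusted p = 0.000536) by edgeR. DNAJB5 averaged 8.07 ± 1.29 CPM without plasmid and rose by 0.54 ± 0.12 (SE, adjusted p = 0.000376) and 0.50 ± 0.12 (SE, adjusted p = 0.00105) by edgeR. DNAJB2 passed the edgeR test with dCas9-VP160 alone (0.51 ± 0.15 (SE, adjusted p = 0.00719)) but not with guides (0.31 ± 0.16 (SE, adjusted p = 0.106)). DNAJB12, DNAJB14 and DNAJB4 had edgeR log2 differences between -0.10 and 0.035 that did not pass in either comparison.

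The DNAJC genes, which share only the J domain, held rises and falls. DNAJC25 stood at 15.6, 15.3, 17.5 and 16 CPM without plasmid, 31.8, 29.1, 39.6 and 41 CPM in the dCas9-VP160 group and 24.1, 31.5, 24.7 and 27 CPM with guides. DNAJC25 (ENSG00000059769, chr9:111631352-111654351) was higher in every library with plasmid, by 1.157 ± 0.094 (SE, adjusted p = 8.31e-11) and 0.75 ± 0.1 (SE, adjusted p = 4.63e-07) by edgeR. It shares 11.6% of its 50-base words with the readthrough gene DNAJC25-GNG10, so its counts are uncertain there. The readthrough gene had no counts, but 93.4% of its own words occur in other genes. DNAJC6, the neuronal auxilin that uncoats clathrin vesicles, averaged 35.2 ± 3.69, 56.3 ± 0.496 and 56.5 ± 1.08 CPM and rose by 0.68 ± 0.065 (SE, adjusted p = 1.49e-09) and 0.68 ± 0.065 (SE, adjusted p = 1.51e-09) by edgeR. DNAJC21 was measured at 92, 91.4, 100.3 and 107 CPM without plasmid, 128, 122, 141 and 146 CPM in the dCas9-VP160 group and 151, 158, 156 and 163 CPM with guides. DNAJC21, which takes part in making the large ribosomal subunit, separated all 3 groups and rose by 0.47 ± 0.048 (SE, adjusted p = 4.66e-09) and 0.69 ± 0.048 (SE, adjusted p = 2.81e-12) by edgeR. DNAJC17 gave 29.4, 23.9, 32.2 and 27 CPM without plasmid, 37.9, 37.9, 35 and 34.7 CPM in the dCas9-VP160 group and 45.9, 43.6, 41.2 and 41.3 CPM with guides. DNAJC17 also separated the 3 groups, with edgeR rises of 0.39 ± 0.076 (SE, adjusted p = 0.000107) and 0.63 ± 0.075 (SE, adjusted p = 6.95e-08). Genes on the other strand overlap DNAJC17, the largest over 20.4% of its exon bases. The strand setting of the counting is not given, so its counts are uncertain there. Smaller rises in both comparisons, between 0.14 and 0.41 on the log2 scale by edgeR, were seen for DNAJC1, DNAJC5, DNAJC8, DNAJC9 and DNAJC11. DNAJC9 and DNAJC11 overlap another gene over 24% and 27.9% of their exon bases. DNAJC8 is a spliceosome-associated protein, DNAJC9 a histone chaperone, and DNAJC5 the cysteine string protein of secretory vesicles.

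Several DNAJC genes fell, all by modest amounts where the gene was well expressed. DNAJC14 was at 79.4, 78.8, 62.4 and 64.1 CPM without plasmid, 63, 60.7, 48.7 and 52.7 CPM in the dCas9-VP160 group and 61.5, 59.6, 51.8 and 48.5 CPM with guides. In each experiment the DNAJC14 libraries with plasmid lay below those without, and the edgeR difference was -0.33 ± 0.055 (SE, adjusted p = 1.64e-05) and -0.36 ± 0.056 (SE, adjusted p = 5.99e-06). About 23% of its 50-base words occur in other genes. DNAJC19 was counted at 68, 65.8, 79.3 and 69.4 CPM without plasmid, 57.7, 58.6, 56.9 and 62.5 CPM in the dCas9-VP160 group and 53.1, 59.3, 60.1 and 66 CPM with guides. DNAJC19, part of the motor that imports proteins into mitochondria, fell by edgeR, -0.25 ± 0.056 (SE, adjusted p = 0.000544) and -0.24 ± 0.056 (SE, adjusted p = 0.000876). The 4 guide libraries spread wider than those with dCas9-VP160 alone, and the highest exceeded the lowest library without plasmid.

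DNAJC4 gave 25.3, 23.4, 25.8 and 21.5 CPM without plasmid, 18.3, 21.1, 18 and 20.1 CPM in the dCas9-VP160 group and 19.1, 19.2, 20.1 and 19.8 CPM with guides. DNAJC4 libraries with plasmid were all below those without, with edgeR differences of -0.30 ± 0.082 (SE, adjusted p = 0.00337) and -0.28 ± 0.083 (SE, adjusted p = 0.00577). DNAJC22 was at 15.4, 16.4, 15.9 and 14.6 CPM without plasmid, 12.4, 12.7, 13.1 and 13.6 CPM in the dCas9-VP160 group and 13.2, 13.6, 13.6 and 13.7 CPM with guides. The DNAJC22 groups with and without plasmid did not overlap either, but the edgeR test passed with dCas9-VP160 alone (-0.26 ± 0.099 (SE, adjusted p = 0.0285)) and not with guides (-0.20 ± 0.1 (SE, adjusted p = 0.0887)). DNAJC30 was measured at 14.3, 11.8, 8.3 and 8.38 CPM without plasmid, 9.29, 7.16, 7.54 and 7.91 CPM in the dCas9-VP160 group and 9.85, 8.82, 7.28 and 7.97 CPM with guides. DNAJC30, a mitochondrial protein, overlaps BUD23 on the other strand over 14.4% of its exon bases. For DNAJC30 only experiment 1 without plasmid was high. Its edgeR difference of -0.37 ± 0.13 (SE, adjusted p = 0.0186) with dCas9-VP160 alone was -0.59 in experiment 1 and -0.10 in experiment 2. DNAJC15, a mitochondrial import protein at 2.27 ± 0.364 CPM without plasmid, was at 1.17 ± 0.418 and 0.684 ± 0.263 CPM with plasmid, and its edgeR difference was -0.95 ± 0.28 (SE, adjusted p = 0.00596) and -1.73 ± 0.32 (SE, adjusted p = 6.26e-05). DNAJC13, an endosomal protein, fell by edgeR, -0.19 ± 0.067 (SE, adjusted p = 0.0183) and -0.19 ± 0.068 (SE, adjusted p = 0.0213).

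Among the small heat shock proteins, HSPB8 and HSPB1 moved apart. HSPB8, which works with the co-chaperone BAG3 in clearing misfolded proteins, is on chromosome 12 at chr12:119178642-119221131 (ENSG00000152137). HSPB8 was at 40.9, 38.8, 41.3 and 36.8 CPM without plasmid, 103, 101, 96.2 and 102 CPM in the dCas9-VP160 group and 93.1, 92.8, 99.1 and 97.1 CPM with guides. All 8 libraries with plasmid held more than those without, and the 2 plasmid groups overlapped. The rise was 2.58-fold with dCas9-VP160 alone (log2 1.37 ± 0.055 (SE, adjusted p = 4.76e-17) by edgeR) and 2.44-fold with guides (log2 1.29 ± 0.056 (SE, adjusted p = 2.14e-16) by edgeR). Within experiments the first difference was 1.37 in experiment 1 and 1.36 in experiment 2. HSPB8 was the only member among the 97 genes of the authors' deposited table, which gives it log2 fold changes of 1.344 (adjusted p = 3.903e-05, DESeq2 columns) with dCas9-VP160 alone and 1.26 (adjusted p = 0.0116) with guides. The deposited test score counts from a log2 change of 1. Its p-values are thus not comparable with the edgeR ones above, which count from no change.

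HSPB1 was counted at 104, 99, 119.5 and 91.8 CPM without plasmid, 95.5, 96.6, 86.4 and 87.8 CPM in the dCas9-VP160 group and 76.2, 81.6, 70.1 and 79.1 CPM with guides. HSPB1, also known as HSP27, was lowest in the guide libraries, which did not overlap either other group, while the remaining groups overlapped each other. The edgeR difference was -0.16 ± 0.051 (SE, adjusted p = 0.00907) with dCas9-VP160 alone and -0.42 ± 0.053 (SE, adjusted p = 1.65e-07) with guides. HSPB11, a ciliary transport protein now also named IFT25, passed with guides only (0.17 ± 0.058 (SE, adjusted p = 0.0167) by edgeR).

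The HSP90 pair changed little. HSP90AA1 was at 485, 484, 591 and 568 CPM without plasmid, 565, 593, 665 and 669 CPM in the dCas9-VP160 group and 550.2, 543, 616 and 672 CPM with guides. Experiment 2 was the higher one in each group, so the groups overlapped, but within each experiment the libraries with dCas9-VP160 alone were above those without plasmid. HSP90AA1 rose by 0.23 ± 0.033 (SE, adjusted p = 1.34e-06) and 0.16 ± 0.033 (SE, adjusted p = 0.000151) by edgeR. HSP90AB1 was measured at 700.3, 762, 778 and 767 CPM without plasmid, 699.5, 698, 771 and 748 CPM in the dCas9-VP160 group and 659, 678, 701 and 709 CPM with guides. The HSP90AB1 groups overlapped. Its edgeR difference was -0.045 ± 0.032 (SE, adjusted p = 0.251) with dCas9-VP160 alone and -0.13 ± 0.032 (SE, adjusted p = 0.00125) with guides. Between 11.3% and 16.6% of the 50-base words of this pair occur in other genes, among them the pseudogenes HSP90AA2P and HSP90AB3P.

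HSPD1 (HSP60) and HSPE1 (HSP10) form 1 folding chamber and are transcribed away from each other from neighbouring starts on chromosome 2, at chr2:197486581-197516737 on the minus strand and chr2:197499994-197503457 on the plus strand. HSPD1 was at 407, 436, 477 and 471 CPM without plasmid, 405, 415, 475 and 484 CPM in the dCas9-VP160 group and 411, 405, 452 and 443 CPM with guides. HSPE1 was at 41.3, 39.2, 56.8 and 52.3 CPM without plasmid, 52, 48, 55.6 and 64 CPM in the dCas9-VP160 group and 46.3, 48, 59.8 and 59.1 CPM with guides. Groups overlapped for HSPD1, whose edgeR difference was -0.011 ± 0.035 (SE, adjusted p = 0.823) with dCas9-VP160 alone and -0.064 ± 0.035 (SE, adjusted p = 0.132) with guides. HSPE1 rose by edgeR, 0.24 ± 0.061 (SE, adjusted p = 0.00204) and 0.18 ± 0.063 (SE, adjusted p = 0.0164), and only in experiment 1 were its libraries with dCas9-VP160 alone clear of those without plasmid. The kits named in the labels do not mark the strand, whereas the series text names a directional assay. The strand setting of the counting is not given. The 2 genes overlap in part of their annotated exons, so whether their reads were told apart there is not known. Of their 50-base words, 13.2% for HSPD1 and 11.7% for HSPE1 also occur in other genes. Among these are the pseudogene HSPD1P1 and the readthrough gene HSPE1-MOB4.

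The comparison of guides with dCas9-VP160 alone asks what the guides added. No group carried guides for another target, and CD34 itself was higher by 6.79 on the log2 scale. Guide RNA, dCas9-VP160 at the CD34 promoter and the rise of CD34 thus cannot be told apart. The test called 6 of 60 members higher and 3 lower (10% and 5%), against 4.16% and 3.41% of all genes. None of these 9 reached 0.5 on the log2 scale, where 0.336% of all genes were higher and 0.931% lower by that much. The median was 0.017 over the members and -0.0040 over all genes. The higher ones, by edgeR, were DNAJC17 (0.24 ± 0.073 (SE, adjusted p = 0.0382)), HSPA4L (0.23 ± 0.04 (SE, adjusted p = 0.000584)) and DNAJC21 (0.21 ± 0.046 (SE, adjusted p = 0.00408)). DNAJA1 (0.17 ± 0.038 (SE, adjusted p = 0.00539)), HSPA13 (0.15 ± 0.047 (SE, adjusted p = 0.0459)) and HSPA9 (0.15 ± 0.033 (SE, adjusted p = 0.00602)) followed.

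The lower ones were DNAJC25 (-0.40 ± 0.089 (SE, adjusted p = 0.00475)), HSPB1 (-0.26 ± 0.053 (SE, adjusted p = 0.00294)) and HSPH1 (-0.18 ± 0.048 (SE, adjusted p = 0.0201)) by edgeR. DNAJC25 and HSPH1 thus rose with dCas9-VP160 alone and stood lower with guides, still above the cells without plasmid. The DNAJC25 difference was -0.14 in experiment 1 and -0.65 in experiment 2. The calls of this comparison fell to 1 higher and 1 lower member without experiment 1 and likewise without experiment 2. The share of all genes called then is not given here, so whether members lost more calls than other genes is not known. HSPA8 and HSPB8 did not pass, with edgeR log2 differences of 0.006 (95% interval -0.06 to 0.072) and -0.08 (-0.18 to 0.024).

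The experiments themselves differed. In experiment 2 against experiment 1, 18 of the 60 members were higher and 4 lower by edgeR, where 12% of all genes were higher and 12.2% lower, and the largest gap was that of DNAJC8 at 0.63 (adjusted p = 2.21e-11). Whether the response to plasmid differed between experiments was tested with an interaction term, whose spread is that of technical replicates. By edgeR no member passed in the first comparison (0.0102% of all genes did), with guides against no plasmid (0.0153%), or with guides against dCas9-VP160 alone (0%). The smallest adjusted p among members was 0.871, and 3, 0 and 1 members had an unadjusted p under 0.05 in the 3 comparisons, where 5.09%, 3.96% and 4.14% of all genes had.

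Partners of these chaperones were read from lists of known genes. Of 26 co-chaperones of HSP70 and HSP90, 17 were higher and 1 lower with dCas9-VP160 alone, and 14 higher and 3 lower with guides, with median log2 differences of 0.22 and 0.17. Among all genes 26.6% were higher and 24.6% lower in the first case, and 26.7% and 25.9% in the second. Without experiment 1 the counts were 16 and 1, and 11 and 2. BAG1, a nucleotide exchange factor, rose by 0.78 and 0.77 (edgeR adjusted p = 1.31e-09 and 2.16e-09). CHORDC1, which binds HSP90, rose by 0.66 and 0.63 (edgeR adjusted p = 1.28e-12 and 3.38e-12), and STIP1, which links HSP70 to HSP90, by 0.24 and 0.25 (3.44e-06 and 1.9e-06). BAG3, the partner of HSPB8, passed with dCas9-VP160 alone (0.22, edgeR adjusted p = 0.00451) and not with guides (0.042, adjusted p = 0.607). UNC45A, a chaperone for myosin, fell by 0.19 and by 0.15 (edgeR adjusted p = 0.000452 and 0.00461).

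Of 7 mitochondrial partners, 5 were higher in both comparisons (26.6% and 26.7% of all genes were), and 4 in both without experiment 1. The exchange factor of HSPA9, GRPEL1, rose by 0.53 and 0.57 (edgeR adjusted p = 3.21e-09 and 8.41e-10). HSCB, the J-domain protein of iron-sulfur cluster assembly, rose from 14.9 ± 0.31 CPM to 31.3 and 29.8 CPM, by 1.07 and 1.00 on the log2 scale (edgeR adjusted p = 2.21e-11 and 1.14e-10). With DNAJA3 and HSPA9 above, the genes for the mitochondrial HSP70, 1 J-domain partner and the exchange factor were higher. Other mitochondrial J-domain genes went both ways. DNAJC11 rose by 0.14 and 0.19 (edgeR adjusted p = 0.014 and 0.00131), whereas DNAJC19, DNAJC15 and DNAJC30 were lower. By edgeR on the log2 scale these 3 differed by -0.25, -0.95 and -0.37 with dCas9-VP160 alone, and by -0.24, -1.73 and -0.32 with guides. DNAJC15 averaged only 1.37 CPM over all groups. The DNAJC30 difference with dCas9-VP160 alone was -0.59 in experiment 1 and -0.10 in experiment 2. HSPD1 and the protease subunits CLPP (0.084, edgeR adjusted p = 0.217) and CLPX (-0.058, adjusted p = 0.481) did not pass with dCas9-VP160 alone.

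Of 3 tested heat shock factors, HSF1 passed, at 0.24 and 0.26 (edgeR adjusted p = 0.00621 and 0.00391), and HSF2 did not (-0.027, adjusted p = 0.689, with dCas9-VP160 alone). Without experiment 1 HSF1 did not pass. Among 6 other tested genes linked to heat shock, 1 rose and 2 fell in each comparison with no plasmid, close to the 26.6% and 24.6%, and the 26.7% and 25.9%, of all genes. Without experiment 1 the calls were 1 lower with dCas9-VP160 alone and 2 lower with guides. IER5, an immediate early gene that acts with HSF1, fell by 0.47 and by 0.56 (edgeR adjusted p = 5.44e-10 and 1.84e-11). The 5 endoplasmic reticulum chaperones that the rule left out all rose, with median log2 differences of 0.49 with dCas9-VP160 alone, 0.70 with guides and 0.21 between guides and dCas9-VP160 alone, and all 5 were called by edgeR in each comparison, where 26.6%, 26.7% and 4.16% of all genes were higher. Without experiment 1 the called numbers were 5, 5 and 1. HSPA5 (BiP) averaged 620.0, 926 and 1115 CPM in the 3 groups.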

How the data were processed

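The first table that the authors deposited gives raw counts, as whole numbers, for each gene in each library. Tools in the submitters' processing notes are Trim Galore 0.3.7, STAR 2.6.0c, Picard 2.17.1, and DESeq2 1.16.1, with build hg38. Which program counted the reads, and with which annotation, is not stated there. Per the file headers, the authors' second deposited table (97 genes) holds a mean normalised signal, log2 fold changes with standard errors, p-values, raw and adjusted, and a test score. Its score equals the absolute log2 fold change minus 1, divided by its standard error.

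The members and lists were chosen with earlier results of these data known. Named in full were 13 well-known members and, per comparison and direction, the 6 called members with the largest change among those averaging at least 5 CPM. Technical replicates differed beyond counting noise (chi-square per degree of freedom 1.84 to 4.37) and were summed to 6 libraries. The 92 spike-ins were left out. The tests used edgeR 4.0.16 under R 4.3.3 (genes filtered by filterByExpr, TMM factors, robust quasi-likelihood fit, 2 residual and a median of 24 prior degrees of freedom), with the experiment as a block, because the labels make it a separate batch of cells. As a check of that pairing, differences between experiments correlated at 0.616 to 0.631 between groups over 12875 genes. The block takes out the shift from one batch to the other. The p-values thus rest on how unevenly group effects repeated in the 2 batches of cells. With 2 residual and a median of 24 prior degrees of freedom, that unevenness was estimated mostly from other genes. Standard errors are the log2 fold change over the root of F, and a prior count of 2 entered differences within 1 experiment. The fit was tested on simulated data. With 0 counts a level of up to 0.251 to 0.444 CPM (3 counts) is allowed, for counting error only. The word length of 50 bases for shared sequence was a choice, since no source used here states the read length. Alternatives were no block, unsummed libraries, other size factors, no filter, DESeq2 1.42.0, a fold threshold and leaving out replicates. One gene of the marker list is not reported here.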

Additional observations from a re-analysis of the deposited data

Results flagged for a closer look

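Single libraries stood away from the rest of their group for HSPA4L and HSPA13. Among the 4 guide libraries of HSPA4L, the gap between the highest (230.7 CPM) and the next was 0.939 of the whole range of the group. Among the 4 libraries of HSPA13 without plasmid, the gap below the highest (108.1 CPM) was 0.911 of the range. A share above the critical value of Dixon's test arises by chance in about 1 in 20 groups.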

How the results depend on the processing

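The counts of called members moved most where differences were small. They are given without the share of all genes under the same alternative. Without the replicate block the first comparison had 2 lower members (11 with it), the guides against no plasmid 16 higher and 5 lower (26 and 12), and the guides against dCas9-VP160 alone 0 higher and 0 lower (6 and 3). DESeq2 gave 3, 7 and 0 lower members in the 3 comparisons. Its counts of higher members, and that of the first comparison without the block, are not given here. Requiring a log2 change of at least 0.5 left 11 higher and 2 lower, 12 and 3, and 0 and 0. Leaving out replicates or experiments gave 5 to 12 lower members in the first comparison, 6 to 12 in the second, and 1 to 8 higher and 0 to 4 lower in the third. In the third, 3 members were higher without replicate 2 of experiment 2 from either the cells without plasmid or those with dCas9-VP160 alone, and 1 was lower without that library of the cells without plasmid or without replicate 1 of experiment 1 with guides. The cause was not tested. For the 26 members named in full, no log2 fold change that was called reversed in any alternative: 1481 values kept their side of the threshold, 142 lost their call and 13 gained one, and 63 of the losses were in the third comparison. HSPB8, HSPH1, HSPA9, HSPA4L, HSPA8, DNAJA3, DNAJC25, DNAJC2 and DNAJC21 passed an adjusted p of 0.05 in both comparisons with no plasmid under all 21 alternatives other than the fold threshold. That threshold, by its construction, leaves out HSPA8 in both and DNAJC21 with dCas9-VP160 alone. Members with few counts, such as HSPA1A, HSPA6 and DNAJC15, are limited by depth.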
